A study of Mus musculus with 4 samples.

Results

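Oxidative phosphorylation subunit genes, the nuclear genes for the 4 respiratory complexes and the ATP synthase of mitochondria, were followed in 4 stable lines of L1210, a mouse lymphocytic leukemia cell line (strain label DBA subline 212). They were found by gene symbol: every gene of the array whose symbol begins with Nduf, Uqcr, Atp5 or Cox and a digit, with Sdha, Sdhb, Sdhc and Sdhd. This rule uses no measured value and gave 102 of the 24561 gene symbols, on 151 of 55681 probes. They were 36 subunits of complex I, 4 of complex II, 8 of complex III, 20 of complex IV and 15 of the ATP synthase. Another 7 assembly factors of complex I, 9 of complex IV and 3 genes with the Atp5 name that are not core subunits made up the rest. The cells carried a lentivirus, were sorted by their GFP and each line was one sorted population. L1210-Fbxw11a was made with Fbxw11a, the full-length form of Fbxw11, an F-box protein that picks substrates for a ubiquitin ligase. L1210-Fbxw11c and L1210-Fbxw11d were made with shorter splice forms of it, and L1210-control is labelled only as the control. They are called the Fbxw11a, Fbxw11c, Fbxw11d and control lines below. All 4 lines were grown in the same medium, and the study used the arrays to look into how the Fbxw11 variants promote proliferation.

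In the respiratory chain, complex I (NADH dehydrogenase) and complex II (succinate dehydrogenase) pass electrons to ubiquinone, complex III passes them to cytochrome c, and complex IV (cytochrome c oxidase) passes them to oxygen. The protons pumped on the way drive the ATP synthase. Most subunits are encoded in the nucleus and a few in mitochondrial DNA, so that both genomes must supply a complex, and several complex IV subunits come in a general form and in forms found mainly in muscle, lung or testis. The transcription factors NRF1, GABP (an ETS family member, also called NRF2) and YY1 are known to bind promoters of many of these genes.

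The RefSeq table of promoters (GRCm38.p6, 250 bases before to 50 after each annotated start) held 83 of the 102 genes. The letters CCGGAAG (ETS), searched on both strands, stood in the window of 22 of these 83 genes (26.5%), against 9.93% of the 27025 genes in the table. GCGCATGCG (NRF1) stood in 10 of them (12%, against 1.95% of all genes), and AAGATGGCG (YY1) in 9 (10.8%, against 1.64%). At least 1 of the 3 was in 35 member genes (42.2%, against 12.7%), and no match of one motif overlapped a match of another. The complex IV assembly factors had the ETS letters in 5 of 7 genes and the general subunit isoforms of complex IV in 3 of 10, and the 4 tissue isoforms with a window had none of the 3 motifs, which at 12.7% of all genes is not read as a difference. Such a match describes these letters in this window and does not show a bound site.

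The 250 bases before the start are shown for the general isoforms Cox6a1 and Cox6b1, for the testis isoform Cox6b2, which was among the 2 members that differed most between lines, and for the muscle isoform Cox8b, which was not well above background in any line. They run 5′ to 3′ on the strand of the gene, and capitals mark matches to the NRF1 and ETS letters or their reverse complement. Cox6a1 lies at chr5:115348959-115349208 (minus strand), Cox6b1 at chr7:30626115-30626364 (minus), Cox6b2 at chr7:4753095-4753344 (minus) and Cox8b at chr7:140900447-140900696 (minus), all in GRCm38.p6.
Cox6a1: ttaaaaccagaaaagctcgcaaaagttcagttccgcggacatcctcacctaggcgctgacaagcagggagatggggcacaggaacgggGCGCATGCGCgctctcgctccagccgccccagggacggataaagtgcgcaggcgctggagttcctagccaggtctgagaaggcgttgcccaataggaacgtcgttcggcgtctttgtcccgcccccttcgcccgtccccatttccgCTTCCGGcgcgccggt
Cox6b1: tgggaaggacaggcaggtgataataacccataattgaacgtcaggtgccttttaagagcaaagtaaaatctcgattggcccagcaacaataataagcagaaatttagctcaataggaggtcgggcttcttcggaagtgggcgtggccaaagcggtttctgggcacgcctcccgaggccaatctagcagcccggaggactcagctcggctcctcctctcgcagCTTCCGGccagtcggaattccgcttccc
Cox6b2: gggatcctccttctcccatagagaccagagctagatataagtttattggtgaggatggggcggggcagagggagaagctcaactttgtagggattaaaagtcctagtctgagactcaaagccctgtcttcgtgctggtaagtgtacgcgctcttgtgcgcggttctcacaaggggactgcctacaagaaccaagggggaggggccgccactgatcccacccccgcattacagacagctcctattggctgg
Cox8b: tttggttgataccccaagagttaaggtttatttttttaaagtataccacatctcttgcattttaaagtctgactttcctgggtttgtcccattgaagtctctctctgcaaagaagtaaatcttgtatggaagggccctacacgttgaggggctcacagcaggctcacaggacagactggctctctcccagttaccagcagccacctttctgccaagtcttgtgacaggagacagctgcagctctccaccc
In Cox6a1 the NRF1 match began 162 bases before the start and the ETS match 16 bases before it, and in Cox6b1 the ETS match began 28 bases before it. CG dinucleotides numbered 26 in the Cox6a1 stretch, 14 in Cox6b1, 8 in Cox6b2 and 1 in Cox8b, against a median of 15 over the member genes and of 6 over all windows of the table. The window of Cox6a2, the other member that differed most, was not analysed here.

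RNA of each line was hybridised to 1 Agilent 1-colour array, so that no test between lines was possible and no difference has a replicate check. Each signal was divided by the 75th percentile of its array, and all signals printed here are on the control array's scale. The control, Fbxw11a and Fbxw11c arrays shared a slide and the Fbxw11d array was on another, so for this line slide and variant cannot be told apart. Probes printed on 10 spots gave the measuring error: for signals over 10000 the SD of a log2 ratio between arrays was 0.08 for the Fbxw11a line, 0.08 for the Fbxw11c line and 0.11 for the Fbxw11d line, and for signals of 100 to 1000 it was 0.12, 0.11 and 0.13. It does not cover differences that arise before hybridisation. After this scaling, probes of the E1A spike-in RNAs stood apart from the control line by 0.13 ± 0.06 (SD, n = 8 probes) on the log2 scale in the Fbxw11a line, by 0.15 ± 0.10 (SD, n = 8) in the Fbxw11c line and by -0.59 ± 0.09 (SD, n = 8) in the Fbxw11d line. Centring on them would shift the median of all genes by -0.13, -0.16 and 0.57, so group medians are also given relative to all genes. Directions and the order of the lines are for the percentile scaling. Centring on the spike-in RNAs lowers each ratio of the Fbxw11a and Fbxw11c lines by about the first 2 of these shifts and raises each of the Fbxw11d line by about the last, which can turn the sign or order of small ratios. Both Fbxw11 probes were 1.02- to 1.24-fold higher than in the control line in the 3 lines, and whether they cover the introduced forms was not tested. All 4 arrays showed 11 of 18 lymphoid markers well above background, and none showed 6 of them, Cd79b, Ebf1, Igll1, Rag1, Cd3g and Thy1, and Ptprc (CD45) gave 29.7 to 42.9. The summed signal of the lymphoid markers was 6002 to 6441 over the lines. Of 6 macrophage markers, 5 were well above background on all 4 arrays, with a summed signal of 13592 in the control line and 10459 to 11522 in the 3 variant lines, the summed fibroblast markers gave 295 to 347, and 4 erythroid markers gave 96.8 in the control line and 177 to 217 in the others. The part of these in the results was not tested.

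Of the 102 genes, 100 were well above background in all 4 lines and 2, Cox8b and Cox8c, in none. No member gene reached a 2-fold difference from the control line in the Fbxw11a line, where 4.53% of the 17936 genes compared did. In the Fbxw11c line 1 of 100 did, against 3.98% of 17742 genes, and in the Fbxw11d line 1 of 100, against 5.83% of 18429. In both lines it was Cox6a2, the muscle isoform of complex IV subunit VIa, and it was lower. In RNA from whole cultures, fewer cells with a transcript and less of it per cell cannot be told apart. The members are bright, 75 of them with a control signal over 10000. Of all 2281 genes that bright, 1 was higher and 5 lower by 2-fold or more in the Fbxw11a line, 3 were lower in the Fbxw11c line, and 3 were higher and 5 lower in the Fbxw11d line, so that few genes this bright passed 2-fold.

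**Figure D1:**
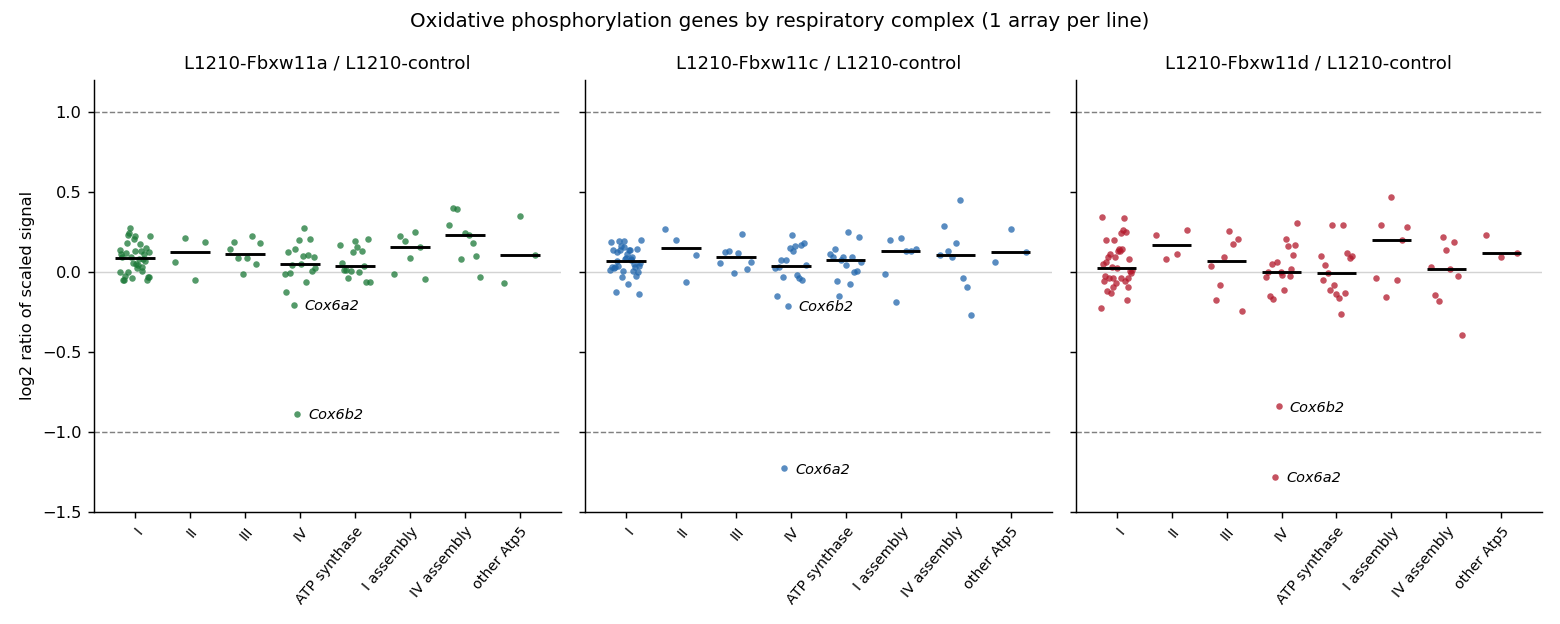
Log2 ratio of the scaled signal in each variant line to the control line (y axis) for the 100 member genes well above background, grouped by respiratory complex (x axis). Each point is 1 gene, black bars are group medians and dashed lines mark 2-fold; Cox6a2 and Cox6b2 are named, and Cox6a2 lies below the lower dashed line in the Fbxw11c line (-1.23) and the Fbxw11d line (-1.28).

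The median log2 ratio of the member genes was 0.09 in the Fbxw11a line, 0.08 in the Fbxw11c line and 0.03 in the Fbxw11d line, against 0.01, 0.02 and 0.04 over all genes compared. With centring on the spike-in RNAs the medians became -0.04, -0.08 and 0.62, so the sign against the control line turned in the Fbxw11a line and the Fbxw11c line. Among members, 76, 76 and 57 of 100 were above 0 in the 3 lines in this order, against 52.1%, 53.8% and 55.6% of all genes with a ratio and 53.9%, 60.2% and 55.3% of the bright genes. The typical size of a difference was small, with a median absolute log2 ratio of 0.10, 0.10 and 0.11 for members and 0.16, 0.15 and 0.22 for all genes. For the 2281 bright genes it was 0.08, 0.10 and 0.13, close to the members.

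With a low threshold of 1.2-fold, chosen after the values were seen, 7 of 100 members passed in the Fbxw11a line (30.2% of all genes), 6 in the Fbxw11c line (29.3%) and 11 in the Fbxw11d line (40.4%). At 1.5-fold 1, 1 and 2 members passed, against 10.8%, 9.98% and 14.8% of all genes. Among the bright genes 8.07%, 8.42% and 18.2% passed 1.2-fold, and of the 75 bright members 3, 1 and 5 did. Within 1.2-fold of the control line in all 3 lines were 81 of the 100 members, against 43.2% of the 16245 genes above background on all 4 arrays and 73.7% of the bright genes. Of the 75 bright members 66 were. The 3 comparisons share the control array. Over the 4 lines the range of a member, from its lowest to its highest log2 signal, had a median of 0.21 and was under 0.5 for 96 genes, while over all genes above background the median was 0.35 and 69.2% were under 0.5. Over the bright genes the median was 0.23 and 94.5% were under 0.5, near the values of the members.

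**Figure D2:**
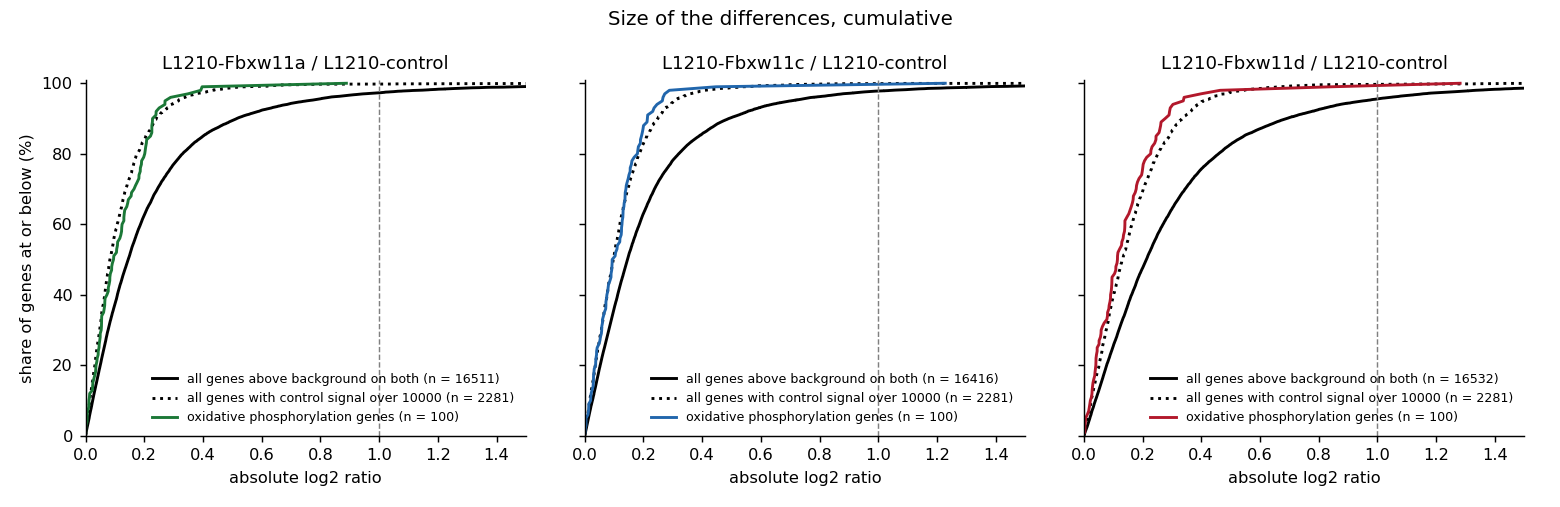
Share of genes (y axis, percent) whose absolute log2 ratio to the control line is at or below the value on the x axis, in each variant line. The coloured line is the 100 members, the solid black line all genes above background on both arrays and the dotted line the 2281 genes with a control signal over 10000; the members follow the dotted line, and the dashed line marks 2-fold.

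Complex I, the NADH dehydrogenase, had 0 of 36 subunits past 2-fold in each line, where 4.53%, 3.98% and 5.83% of all genes and few of the bright genes passed, so the 0 is not read as a trait of the complex. Its 36 subunits had a median log2 ratio of 0.08, 0.07 and 0.02 in the Fbxw11a, Fbxw11c and Fbxw11d lines, or 0.07, 0.05 and -0.02 relative to all genes, the last of which turned to 0.10 with normexp, 0.03 with the mean of all probes and 0.06 without a filter on dim probes. The single ratios ran from -0.05 (Ndufs7) to 0.27 (Ndufab1), from -0.14 (Ndufv1) to 0.20 (Ndufv3) and from -0.23 (Ndufa1) to 0.34 (Ndufa10). The 7 core subunits, among them those with the flavin and iron-sulfur centres, had medians of 0.0051, 0.04 and 0.0039, and the 29 accessory subunits of 0.11, 0.08 and 0.03.

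The 3 complex I subunits with the highest mean signal were Ndufs6, Ndufb7 and Ndufa2. Ndufs6, an accessory subunit of the matrix arm, gave 96623 in the control line, 106904 in the Fbxw11a line, 106505 in the Fbxw11c line and 90400 in the Fbxw11d line. Ndufb7, an accessory subunit on the intermembrane side, gave 90707, 92288, 86146 and 99942 in the same order, and Ndufa2 gave 85734, 82805, 87454 and 98520. With this scaling the Fbxw11d line held the lowest of the 4 values for Ndufs6 and the highest for the other 2. The largest ratio in size was 0.20, for Ndufa2 in the Fbxw11d line. With spike-in centring the Fbxw11d line was the highest for all 3 (0.49, 0.73 and 0.79). Ndufa10, an accessory subunit, was the complex I subunit with the highest mean ratio: 10135 in the control line, 11118 in the Fbxw11a line, 11505 in the Fbxw11c line and 12840 in the Fbxw11d line, log2 ratios of 0.13, 0.18 and 0.34. The control line was the lowest of the 4.

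The 7 complex I assembly factors, which help to build the complex and are not part of it, had medians of 0.16, 0.13 and 0.20, or 0.15, 0.11 and 0.16 relative to all genes. Ndufaf4 gave 13129 in the control line, 13922 in the Fbxw11a line, 15211 in the Fbxw11c line and 18113 in the Fbxw11d line, and its 0.46 in the Fbxw11d line was the highest ratio of any member in that line. Ndufaf2, a paralog of the accessory subunit Ndufa12, gave 5677, 6618, 6523 and 6961, log2 ratios of 0.22, 0.20 and 0.29. For both genes the control line was the lowest with this scaling. In the Fbxw11a line, however, Ndufaf4 gave -0.05 with spike-in centring and its second probe gave -0.08. Ndufaf5, a methyltransferase that modifies a core subunit, gave 472, 562, 517 and 455, and 2 of its 3 probes had log2 ratios from -0.05 to 0.25.

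Complex II, succinate dehydrogenase, is the only complex whose subunits are all nuclear, and it also belongs to the tricarboxylic acid cycle. Its 4 genes had a median log2 ratio of 0.12, 0.15 and 0.17, or 0.11, 0.13 and 0.13 relative to all genes, the highest median of the 5 complexes in each line. Sdha, the flavoprotein that oxidises succinate, gave 23024 in the control line, 24028 in the Fbxw11a line, 27702 in the Fbxw11c line and 26977 in the Fbxw11d line, log2 ratios of 0.06, 0.27 and 0.23. Sdhb, the iron-sulfur subunit, gave 30926, 35729, 35489 and 32651, log2 ratios of 0.21, 0.20 and 0.08. Both catalytic genes were above the control line in each variant line by at most 0.27 with this scaling. With spike-in centring Sdha gave -0.07 in the Fbxw11a line, and Sdha and Sdhb gave 0.82 and 0.67 in the Fbxw11d line. Sdhc, a membrane anchor with part of the ubiquinone site, gave 13163, 12672, 12567 and 14193, with ratios of -0.05, -0.07 and 0.11. Its other probe, also bright, gave 0.03, -0.06 and -0.05, so its direction in the Fbxw11a line and the Fbxw11d line depends on the probe. Sdhd, the other anchor, gave 43052, 49005, 46258 and 51517, with ratios of 0.19, 0.10 and 0.26. Of the 4, Sdha passed 1.2-fold in the Fbxw11c line, where 29.3% of all genes and 8.42% of the bright genes did, and none in the other lines, and with 4 genes a median rests on the middle 2.

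Complex III, the cytochrome bc1 complex, had medians of 0.11, 0.09 and 0.06 over its 8 nuclear genes matched by the rule, or 0.10, 0.07 and 0.02 relative to all genes. The last turned to -0.04 with quantile normalization and with the deposited normalized values. Uqcrq, a small accessory subunit, gave 136696 in the control line, 155054 in the Fbxw11a line, 142567 in the Fbxw11c line and 115309 in the Fbxw11d line, log2 ratios of 0.18, 0.06 and -0.25, while its other probe, also bright, gave 0.11, 0.03 and -0.0052. Uqcrh, the hinge protein, gave 70487, 72807, 71176 and 81086, and Uqcr10 gave 61225, 67637, 63685 and 62815. Uqcrfs1, the Rieske iron-sulfur protein, was above the control line in all 3 lines with 0.23, 0.24 and 0.17. Uqcrc2, a core protein, had 0.08, 0.12 and 0.26, and Uqcrc1, the other core protein, -0.01, -0.01 and 0.09.

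Complex IV held the 2 members that differed most, and both are tissue isoforms. Its 18 measured genes had a median of 0.05, 0.04 and -0.0033, the 12 general isoforms alone 0.09, 0.07 and 0.03, and the 6 measured tissue isoforms -0.05, -0.10 and -0.03. Relative to all genes the complex had 0.04, 0.02 and -0.05, the last turning to 0.04 with normexp and 0.03 without a filter on dim probes, and the general isoforms had 0.08, 0.05 and -0.01. Cox6a2, the heart and muscle isoform of subunit VIa (probe at chr7:135349160-135349219 in mm9), gave 365 ± 36.7 in the control line, 316 ± 31.8 in the Fbxw11a line, 156 ± 15.9 in the Fbxw11c line and 150 ± 15.1 in the Fbxw11d line, where ± is the signal error of the scanner software for the 1 spot. Relative to the control line it was 1.15-, 2.34- and 2.43-fold lower, log2 ratios of -0.21, -1.23 and -1.28. With this scaling the values formed a higher pair, the control line and the Fbxw11a line, and a lower pair, the Fbxw11c line and the Fbxw11d line. With spike-in centring the log2 ratios were -0.34, -1.38 and -0.69, so that the Fbxw11d line lay between the others and short of 2-fold. With normexp background correction the Fbxw11c line gave -0.95, also short of 2-fold. The part of the slide in the value of the Fbxw11d line was not tested.

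Cox6a1, the isoform of VIa used in most other tissues, gave 228863, 235868, 223754 and 203728 in the control, Fbxw11a, Fbxw11c and Fbxw11d lines, log2 ratios of 0.04, -0.03 and -0.17. Cox6b2, the testis isoform of subunit VIb (probe at chr7:4703488-4703547 in mm9), gave 281 ± 28.4, 152 ± 15.5, 243 ± 24.5 and 157 ± 15.8 in the same order. It was 1.85-, 1.16- and 1.79-fold lower than in the control line, log2 ratios of -0.89, -0.21 and -0.84, and passed 2-fold in no line. With spike-in centring the ratios were -1.02, -0.37 and -0.25, and the Fbxw11a line passed. In contrast to Cox6a2, under both scalings the Fbxw11a line was lower than the Fbxw11c line. Cox6b1, the general isoform of VIb, gave 9961, 10980, 10468 and 10373, with log2 ratios of 0.14, 0.07 and 0.06. Cox6a2 and Cox6b2 each rest on 1 probe on 1 spot and on dim signals, and without the pair the median over members was 0.09, 0.08 and 0.04.

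**Figure D3:**
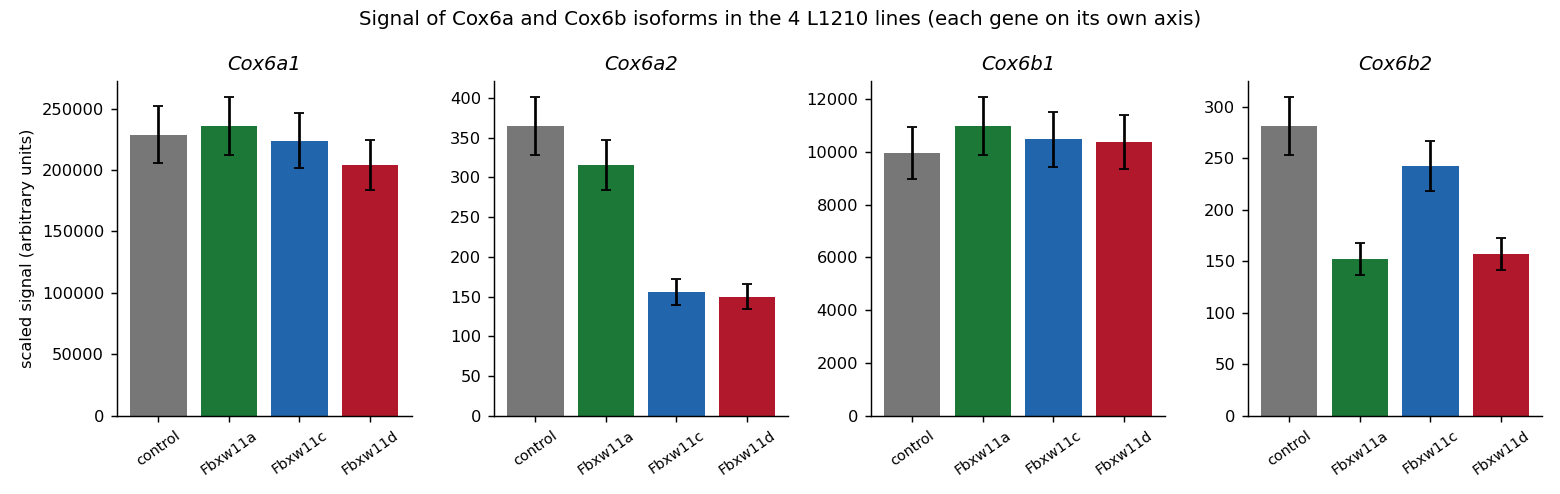
Scaled signal (y axis, arbitrary units, from 0) of the general isoforms Cox6a1 and Cox6b1 and the tissue isoforms Cox6a2 and Cox6b2 in the 4 lines (x axis), each gene on an axis of its own. Bars are single arrays and error bars the signal error of the scanner software; Cox6a2 is low in the Fbxw11c line and the Fbxw11d line (156 and 150 against 365), Cox6b2 in the Fbxw11a line and the Fbxw11d line (152 and 157 against 281).

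The other isoform sets of complex IV differed less between lines. Cox4i1, the general form of subunit IV, gave 148155, 146990, 150304 and 144737 in the control, Fbxw11a, Fbxw11c and Fbxw11d lines, and its lung isoform Cox4i2 gave 526, 483, 473 and 525. Both genes were within 0.16 of the control line throughout. Cox7a1, the muscle isoform of VIIa, gave 3747, 3879, 4400 and 3690, and the general Cox7a2 gave 41905, 44798, 45761 and 38747. For both, the Fbxw11c line was the highest and the Fbxw11d line the lowest with this scaling, and the Fbxw11d line was the highest with spike-in centring (0.57 and 0.47). Cox7a2l, which links complexes III and IV into supercomplexes, gave 46871, 56534, 52335 and 54085, log2 ratios of 0.27, 0.16 and 0.21, but its other 2 probes gave -0.03 and 0.02 in the Fbxw11a line and -0.34 and -0.14 in the Fbxw11d line. Its direction therefore depends on the probe.

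Cox7b gave ratios of -0.06, -0.02 and 0.16, and the testis isoform Cox7b2 of 0.11, -0.04 and -0.03. Cox8a, the general form of subunit VIII, gave 147888, 148466, 142663 and 159013, with ratios of 0.01, -0.05 and 0.10. Its other probe, also bright, gave -0.16, -0.13 and 0.06, so its direction in the Fbxw11a line depends on the probe. The muscle isoform Cox8b and the testis isoform Cox8c were not well above background on any array, with signals of 3.41 to 13.6 and of 2.07 to 3.96, so no fold is given. Ndufa4, once counted with complex I and now with complex IV, gave 22913, 24370, 25976 and 25755, and its hypoxia-induced paralog Ndufa4l2 gave 33.0, 33.6, 34.0 and 40.7. At such dim signals the SD of a ratio between spots was 0.58, 0.55 and 0.73, larger than the 0.30 by which Ndufa4l2 stood above the control line in the Fbxw11d line.

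The 9 complex IV assembly factors had a median of 0.23 in the Fbxw11a line, 0.11 in the Fbxw11c line and 0.02 in the Fbxw11d line, or 0.22, 0.09 and -0.02 relative to all genes. Cox11, a copper chaperone, gave 2892 in the control line, 3808 in the Fbxw11a line, 3532 in the Fbxw11c line and 2613 in the Fbxw11d line, log2 ratios of 0.40, 0.29 and -0.15. Cox14, which acts in the assembly of COX1, gave 25219, 33106, 27595 and 22218, log2 ratios of 0.39, 0.13 and -0.18. In both, the Fbxw11a line was the highest line and the Fbxw11d line the lowest with this scaling. With spike-in centring the Fbxw11d line was the highest (0.44 and 0.40), and the second, dim Cox11 probe gave 0.42 in the Fbxw11d line. Cox17, which brings copper to the chaperones, gave 116, 136, 158 and 117, with ratios of 0.23, 0.45 and 0.02, while its second measured probe gave -0.22, 0.24 and -0.10. Cox20, a chaperone of COX2, gave 5045, 4921, 4176 and 3827, with ratios of -0.04, -0.27 and -0.40. Of the members it had the lowest ratio after Cox6a2 in the Fbxw11c line, and after Cox6a2 and Cox6b2 in the Fbxw11d line.

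The ATP synthase had medians of 0.03, 0.08 and -0.0054 over its 15 genes, or 0.02, 0.06 and -0.05 relative to all genes, the last turning to 0.06 with normexp and 0.03 without a filter on dim probes. Most of these genes had a control signal over 50000, and the 572 genes of the array that bright had medians of -0.0020, -0.0081 and -0.08, so that in the Fbxw11d line the ATP synthase lay below all genes and above the genes over 50000. Of the 15 0, 0 and 2 passed 1.2-fold, in the last line Atp5f1 and Atp5j of the stalk (0.29 each), against 30.2%, 29.3% and 40.4% of all genes and 8.07%, 8.42% and 18.2% of the bright genes. The 5 genes of F1, the part that makes ATP, had medians of 0.01, 0.09 and -0.01, and the 10 genes of the membrane part and the stalk 0.08, 0.07 and 0.0029. Atp5b, the catalytic beta subunit, gave 183030, 190047, 194768 and 176561 in the control, Fbxw11a, Fbxw11c and Fbxw11d lines. Atp5g1, Atp5g2 and Atp5g3 encode the same mature subunit c of the rotating ring. Atp5g1 gave 122525, 133412, 130593 and 115881, Atp5g2 gave 246107, 280818, 253106 and 223378, and Atp5g3 gave 84565, 94179, 100305 and 75417. All 3 were above the control line in the Fbxw11a line and the Fbxw11c line and below it in the Fbxw11d line, by 0.25 or less, a pattern that centring on the spike-in RNAs turned, with 0.42 to 0.51 in the Fbxw11d line. All 3 had a control signal over 50000, and of all genes that bright only 31.6% were above the control line in the Fbxw11d line. Atp5e and Atp5h had the lowest mean ratio of the ATP synthase genes. Atp5e, a small subunit of F1, gave 99392, 96777, 89527 and 91796, and Atp5h, a stalk subunit, gave 99579, 99451, 94308 and 82986. The log2 ratios of Atp5h were -0.0019, -0.08 and -0.26, while its other probe, also bright, gave -0.07, 0.02 and -0.07. The low value of Atp5h in the Fbxw11d line therefore rests largely on the main probe. Atp5s, a coupling factor outside the core enzyme, gave 539, 686, 647 and 573, log2 ratios of 0.35, 0.26 and 0.09. Atp5c1-ps is listed as a pseudogene of Atp5c1, and whether its probe also reads that gene was not tested.

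Between variant lines, 1 of 100 members passed 2-fold for the Fbxw11a line over the Fbxw11c line (4.35% of all genes), 1 for the Fbxw11a line over the Fbxw11d line (6.10%) and 0 for the Fbxw11c line over the Fbxw11d line (4.31%). Again it was Cox6a2, 2.03- and 2.11-fold higher in the Fbxw11a line, log2 ratios of 1.02 and 1.07. With median centring, normexp or the deposited normalized values neither passed, and with quantile normalization or spike-in centring the second did not. At 1.2-fold 3, 19 and 9 members passed for the 3 pairs in this order, against 30.1%, 43.8% and 35.7% of all genes and 6.31%, 22.3% and 12.7% of the bright genes. At 1.5-fold 2, 1 and 1 did, against 11%, 16.0% and 12.5% of all genes. The Fbxw11c line and the Fbxw11d line differed in Cox6a2 by 0.05 with this scaling. For Cox6b2 the ratio was -0.67 for the Fbxw11a line over the Fbxw11c line, -0.05 over the Fbxw11d line and 0.63 for the Fbxw11c line over the Fbxw11d line. Over all members the median absolute ratio was 0.07 between the Fbxw11a line and the Fbxw11c line, the pair that shares a slide, and 0.15 and 0.13 for the pairs with the Fbxw11d line. Over all genes these were 0.15, 0.23 and 0.19, and over the bright genes 0.08, 0.14 and 0.12, in the same order.

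The 13 subunits encoded in mitochondrial DNA were all well above background in every line, and 0 passed 2-fold, against 4.53%, 3.98% and 5.83% of all genes, which for 13 genes is not read as a result about them. Their medians were 0.07, 0.11 and 0.06 in the Fbxw11a, Fbxw11c and Fbxw11d lines, beside 0.08, 0.07 and 0.03 for the 81 measured nuclear subunits of the 5 complexes. Relative to all genes the 13 had 0.06, 0.09 and 0.02. COX1, the catalytic core of complex IV, gave 287015 in the control line, 283554 in the Fbxw11a line, 266848 in the Fbxw11c line and 249883 in the Fbxw11d line. ND6, the only one of the 13 read from the light strand, gave 696, 827, 867 and 564, log2 ratios of 0.25, 0.32 and -0.30. The lowest value was in the Fbxw11d line with this scaling. ND3 gave 46183, 63395, 63355 and 51669, log2 ratios of 0.46, 0.46 and 0.16. The file places the ND3 probe on chromosome 1 (24619613 to 24619672 in mm9), not on mitochondrial DNA, and its match to either was not tested.

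**Figure D4:**
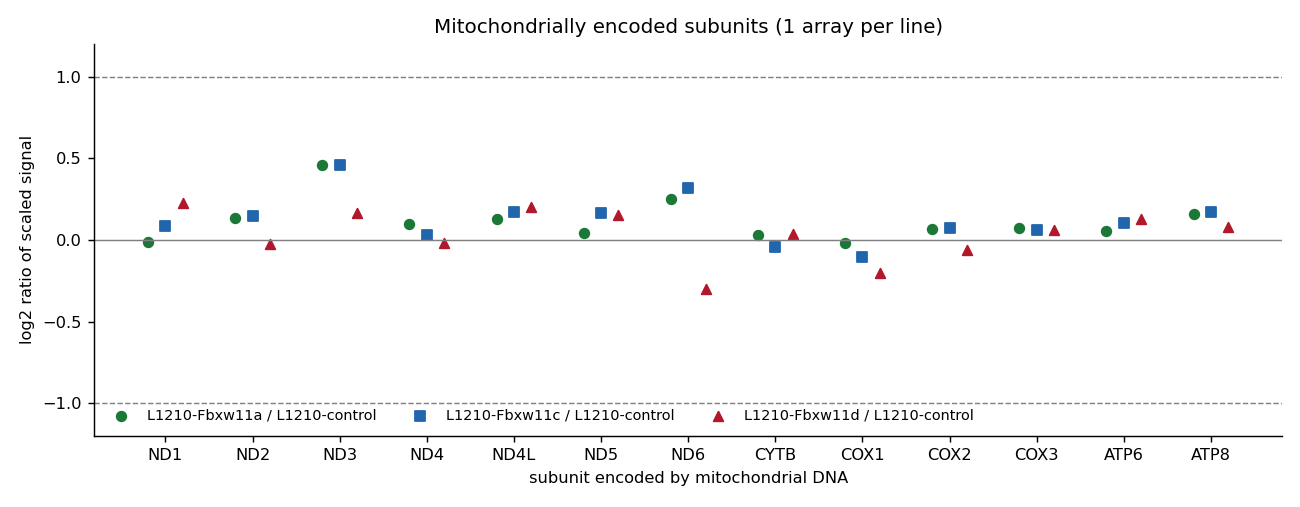
Log2 ratio of the scaled signal to the control line (y axis) of the 13 subunits encoded in mitochondrial DNA (x axis) in the 3 variant lines. Each point is 1 array against the control array and dashed lines mark 2-fold; most points lie between -0.30 (ND6 in the Fbxw11d line) and 0.32 (ND6 in the Fbxw11c line), and ND3 reaches 0.46.

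No gene of the other pathway lists passed 2-fold, against 4.53%, 3.98% and 5.83% of all genes and few of the bright genes, and for lists this short a count of 0 is not read as a result about them. Of 36 carriers and assembly or inhibitor factors, 33 were measured in all 4 lines and 0 passed, with medians of 0.14, 0.09 and 0.14. They ran from -0.36 for Surf1, an assembly factor of complex IV, in the Fbxw11a line to 0.46 for Acad9, an assembly factor of complex I, in the Fbxw11d line. Cycs, cytochrome c, had ratios of 0.10, 0.10 and -0.11, and Atpif1, the inhibitor of the ATP synthase, of -0.06, 0.03 and 0.14. Of 23 genes of the tricarboxylic acid cycle and pyruvate dehydrogenase, 22 were measured and 0 passed, with medians of 0.09, 0.09 and 0.13. Pdhx, which anchors a subunit in pyruvate dehydrogenase, was above the control line by 0.41, 0.42 and 0.45, and Dlat, its acetyltransferase, by 0.49, 0.40 and 0.14. Of the 17 regulators of mitochondrial biogenesis, 0 passed, with medians of -0.05, 0.07 and 0.06. Ppargc1a, a coactivator that drives mitochondrial biogenesis, had ratios of 0.18, 0.20 and 0.54, Nrf1 of -0.20, -0.16 and 0.02, Gabpa of -0.07, 0.10 and 0.06 and Yy1 of 0.16, 0.14 and 0.06. The 77 mitochondrial ribosomal proteins, which make the subunits encoded in mitochondrial DNA, had medians of 0.07, 0.09 and 0.15, and 0 passed 2-fold. Relative to all genes the medians were 0.13, 0.07 and 0.10 for the carriers and factors, 0.08, 0.07 and 0.08 for the tricarboxylic acid cycle list, -0.06, 0.05 and 0.02 for the regulators and 0.06, 0.07 and 0.10 for the ribosomal proteins.

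Of the 35 member genes with ratios from several probes in the Fbxw11a line, 29 had probes within 0.3 of each other, as did 32 of 35 in the Fbxw11c line and 29 of 35 in the Fbxw11d line. The median distance between the probes of a gene was 0.07, 0.07 and 0.17. All probes of a gene had the same sign in 22, 26 and 18 of the 35 genes, so that the direction of small ratios often depended on the probe. Probes of a gene lay 1 or more apart for Atp5g1 in the Fbxw11d line, where its second probe gave -1.29 and the main one -0.08, and for Ndufaf5 in the Fbxw11c line, where a dim probe gave at least 2.13 and the main one 0.13.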

How the data were processed

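The authors deposited the scanner output of Agilent Feature Extraction for each of the 4 arrays, with a background-corrected signal intensity per spot (version 10.7.1.1 in the file headers, 9.1 in the submitters' processing notes), and 1 table with the same intensities, log2 values normalized across the arrays by a method not given in the sources used here, gene symbols and mm9 probe positions. Each array's processed signals were divided by their 75th percentile over the gene spots and put on the log2 scale. Spots marked as outliers were dropped before the spots of a probe were averaged, and a probe was taken as well above background when this held for at least 0.5 of its spots. The probe of highest mean signal stood for a gene. Genes entered a comparison when either array showed them well above background. The 2-fold threshold is that of the study. With 1 array per line, the number of arrays sets the precision. The ratio and count steps were tested on simulated data with known changes.

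The members, the lists and the rule for named genes were chosen with earlier results of these data known. The rule took the complex II genes, the 3 brightest genes of each complex, genes past 2-fold, the 5 highest, 5 lowest and 5 most variable among lines, isoform sets, and genes whose probes disagree by 1 or more. Other genes were named after their values were seen. Alternatives were normexp (limma 3.58.1, offset 50), quantile normalization, median and spike-in centring, the deposited normalized log2 values, other filters and probe rules, and thresholds of 1.2, 1.5 and 3. Promoter sequences are RefSeq's, matched by Entrez gene ID. Computations used Python 3.11.15, pandas 2.3.3 and R 4.3.3.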

Additional observations from a re-analysis of the deposited data

Results flagged for a closer look

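A pair of probes that do not stand for their gene differed by more than 2-fold from the control line although the main probe of the gene did not. The second probe of Atp5g1 (chr11:95930317-95930376 in mm9; the main probe lies at chr11:95934315-95934374) gave 6803 in the control line, 7185 in the Fbxw11a line, 6977 in the Fbxw11c line and 2787 in the Fbxw11d line, a log2 ratio of -1.29 in the Fbxw11d line, while the main probe gave -0.08 there. The third probe of Ndufaf5 (chr2:140030903-140030962 in mm9) gave 9.0 in the control line, where it was not well above background, 17.0 in the Fbxw11a line, 79.3 in the Fbxw11c line and 10.5 in the Fbxw11d line. Its log2 ratio in the Fbxw11c line was at least 2.13, at least 4.39-fold higher, while the other 2 probes gave 0.13 and 0.11 there. Each rests on 1 spot per array, and the cause was not tested.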

How the results depend on the processing

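With 1 array per line, a value without a replicate can only be set against the spread between spots. The slide could not be fitted as a block, since the Fbxw11d line was alone on its slide, and was not run. No paired analysis was possible because each group holds 1 sample. Ratios of genes at signals under 100 are limited by signal over background, with an SD between spots of 0.55 to 0.73. Cox6a2 ranged from -0.95 to -1.38 in the Fbxw11c line and from -0.69 to -1.28 in the Fbxw11d line over the alternatives, and Cox6b2 from -0.69 to -1.02, -0.14 to -0.37 and -0.25 to -0.84 in the 3 lines, with no change of direction.

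For members past 2-fold against the control line, normexp gave 0 in the Fbxw11c line, against 1.22% of all genes with that setting. No filter on dim probes gave 2 there (adding Cox8b), against 7.54% of all genes. The mean of all probes also gave 2 (adding Ndufaf5), against 3.68%. Centring on the spike-in RNAs gave 1 in the Fbxw11a line (Cox6b2, lower), against 4.47%. In the Fbxw11d line it gave 1 that was another gene, Ndufaf4, higher, against 12.2%. At 1.5-fold the counts were 1, 1 and 2 in the Fbxw11a, Fbxw11c and Fbxw11d lines (10.8%, 9.98% and 14.8% of all genes). At 1.2-fold they were 7, 6 and 11 (30.2%, 29.3% and 40.4%, a threshold chosen after seeing the data). At 3-fold they were 0 in each (2.05%, 1.79% and 2.09%). Between the Fbxw11a line and the Fbxw11c line the count was 3 at 1.2-fold (30.1% of all genes), 2 at 1.5-fold (11%) and 2 without a filter (8.50%). It was 0 at 3-fold (1.76%), with normexp (1.17%), with median centring (4.24%) and with the deposited values (4.23%). Between the Fbxw11a line and the Fbxw11d line it was 19 at 1.2-fold (43.8% of all genes) and 5 with spike-in centring (20.8%, and not Cox6a2). It was 0 at 3-fold (2.10%), with normexp (2.42%), quantile normalization (5.70%), median centring (5.49%) and the deposited values (5.59%). Between the Fbxw11c line and the Fbxw11d line it was 9 at 1.2-fold (35.7%) and 2 with spike-in centring (18.7%). It was 1 at 1.5-fold (12.5%), with the mean of all probes (3.75%) and without a filter (8.74%).

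The median over members was -0.042, -0.076 and 0.62 with spike-in centring, and 0.25 in the Fbxw11d line with median centring. Relative to all genes, the median over members was 0.079 to 0.11, 0.040 to 0.11 and -0.026 to 0.087 in the 3 lines, so that its direction in the Fbxw11d line turned between alternatives, and normexp moved the Fbxw11d line to 0.10 for complex I, 0.15 for complex III and 0.063 for the ATP synthase. The cause was not tested. Of 1053 values of named genes under the alternatives, 864 moved by less than the spread between spots and 189 by more. With spike-in centring 114 of 117 moved by more, and with median centring 38 of 117.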
